A study of Mus musculus with 6 samples.

Results

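The genes described are the constant gene of the immunoglobulin kappa light chain (Igkc), the 3 lambda constant genes Iglc1, Iglc2 and Iglc3, and the 3 lambda variable genes Iglv1, Iglv2 and Iglv3. They are the rows of the table that carry exactly these 7 gene names, of 34709 genes in all and of 136 kappa and lambda constant, joining and variable segments. They were chosen by name with their FPKM and counts in the KO and wildtype libraries already known, so every difference between the groups is given for them as a description, without a test. Articular cartilage was taken from aged male whole-body knockout (KO) mice and from their wildtype littermates on the C57BL/6J background, without further treatment. Polyadenylated RNA was sequenced in 3 KO and 3 wildtype libraries. The labels do not say whether the replicates of a group were separate animals, so p-values measure only the spread between these samples.

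An antibody joins heavy chains to light chains, and each light chain is made either from the kappa locus or from the lambda locus. A developing B cell cuts and joins a variable to a joining segment, and splicing then attaches the constant segment, so a rearranged B cell or plasma cell carries a single combination and passes it to its progeny. In the mouse most light chains are kappa. Light chains are made by B cells and plasma cells, which reside in marrow, blood and lymphoid tissue, and are not a known product of chondrocytes. In bulk RNA, fewer cells of a type and less RNA per cell cannot be told apart.

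The libraries held total counts of 52268311 to 63331135, of which the 7 genes took 0.142% to 0.206%. The squared difference between KO replicates 2 and 3, as a median over genes, was 5.77 times that of sampling noise in their counts. For the other 14 pairs of libraries it was 23.8 to 85.0 times. KO replicates 2 and 3 were therefore averaged and counted as 1 sample. The KO group therefore has n = 2 and the wildtype group n = 3. On the first principal component of all genes, which held 45.9% of the variance, the library labelled KO replicate 1 scored 24.6, within the wildtype range of 23.9 to 26.2, whereas KO replicates 2 and 3 scored -50.7 and -49.55. The targeted gene, whose level is not given, was lower than in every wildtype library in KO replicates 2 and 3 but not in the library labelled KO replicate 1. The label of that library is thus in doubt, and KO means, n = 2 and statements on all KO libraries take it as labelled. Each value is therefore given for every library. Of 10 chondrocyte markers, 8 reached a mean of 0.5 FPKM (fragment counts scaled by transcript length and library depth). Matn3 had a count of 0 in libraries of both groups. All 10 markers together summed to 633 to 1436 FPKM in KO and 608 to 830 in wildtype libraries. Prg4 alone was most of that sum, with 436 to 1034 FPKM in KO and 402 to 581 in wildtype. Red-cell markers summed to 14383 to 35437 FPKM in KO and 40909 to 64535 in wildtype, and neutrophil markers to 26027 to 32050 and 13857 to 22426. T and NK cell markers summed to 86.2 to 109 and 63.6 to 76.1. Most of the T and NK cell sum was Nkg7, at 77.6 to 100 FPKM in KO and 52.8 to 67.1 in wildtype. By fitted mean Nkg7 was the 1 marker of that list that was higher in KO, and the other 5 were lower. None of the markers of these 4 lists was at 0 in all libraries. The part of these other cells in the light-chain values was not tested.

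The lambda locus carries its segments in repeated sets, and how alike the copies are decides how far reads can be assigned to 1 of them. The sequences shown are transcribed strands from the GENCODE transcripts of mouse build GRCm38, whose positions matched those of the deposited table for 7 of 7 genes. The joining segments come first, because each stands for a different constant gene. Capitals mark bases that differ from Iglj1.
Iglj1 (chr16:19063225-19063262, minus strand): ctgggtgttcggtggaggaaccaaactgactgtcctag
Iglj2 (chr16:19200198-19200235, minus strand): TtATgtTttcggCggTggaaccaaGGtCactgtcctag
Iglj3 (chr16:19067041-19067078, minus strand): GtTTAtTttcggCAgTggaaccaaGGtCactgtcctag
Of 38 bases, 9 differ between Iglj2 and Iglj1 and 11 between Iglj3 and Iglj1.

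The start of the coding part of the 3 lambda constant genes shows that Iglc2 and Iglc3 are near copies of each other and that Iglc1 is not. Capitals mark bases that differ from Iglc3 over 120 bases.
Iglc3: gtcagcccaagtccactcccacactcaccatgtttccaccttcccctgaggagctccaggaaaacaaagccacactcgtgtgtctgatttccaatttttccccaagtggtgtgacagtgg
Iglc2: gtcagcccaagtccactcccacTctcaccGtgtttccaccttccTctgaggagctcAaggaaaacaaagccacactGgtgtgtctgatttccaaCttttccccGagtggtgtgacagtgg
Iglc1: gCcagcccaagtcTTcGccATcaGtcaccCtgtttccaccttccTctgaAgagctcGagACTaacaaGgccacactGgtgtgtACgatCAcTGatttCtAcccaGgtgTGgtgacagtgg
In this window Iglc2 differs from Iglc3 at 7 bases and Iglc1 at 27. Over the whole transcripts, Iglc2 and Iglc3 were identical at 432 of 452 aligned bases (95.6%), with a longest shared run of 79 bases, while Iglc1 matched Iglc2 and Iglc3 at 70.0% each.

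The ends of Iglv1 and Iglv2, which encode the part of the variable region next to the joining segment, are almost the same. Capitals mark bases that differ from Iglv1 over 120 bases.
Iglv1: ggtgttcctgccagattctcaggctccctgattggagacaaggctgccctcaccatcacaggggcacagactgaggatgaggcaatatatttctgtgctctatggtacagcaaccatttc
Iglv2: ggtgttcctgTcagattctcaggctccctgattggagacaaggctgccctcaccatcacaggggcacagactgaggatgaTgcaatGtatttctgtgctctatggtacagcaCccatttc
Only 4 bases differ in this window, and the transcripts were identical at 354 of 366 aligned bases (96.7%), with a longest shared run of 104 bases. Iglv3 matched Iglv1 at 63.3%. No stretch of 150 bases, the read length, was shared in full by any pair of the 7 genes that was compared, but 5 of 384 windows of 75 bases in Iglc2 occurred in Iglc3 and 30 of 317 in Iglv1 occurred in Iglv2. The split of counts between Iglc2 and Iglc3, and between Iglv1 and Iglv2, is uncertain to that extent.

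Igkc lies on the plus strand of another chromosome (chr6:70726435-70726966) and begins as shown, to set it beside the lambda constant genes.
Igkc: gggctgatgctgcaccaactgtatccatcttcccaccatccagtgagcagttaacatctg
It matched Iglc1 at 61.1% of aligned bases. All lambda segments lie on the minus strand of chromosome 16, and in the order of transcription they run Iglv2 (chr16:19260401-19260859), Iglv3 (chr16:19241207-19241690), Iglc2 (chr16:19198396-19200351), Iglv1 (chr16:19085017-19085500), Iglc3 (chr16:19065230-19065681) and Iglc1 (chr16:19061618-19062071). Iglv1 therefore stands upstream of the pairs Iglj3 with Iglc3 and Iglj1 with Iglc1, while Iglv2 and Iglv3 stand upstream of every lambda constant gene. Igkc, Iglc1 and Iglc3 are annotated as a single exon that holds coding sequence and a 3′ untranslated part, and the variable genes as a leader exon and a main exon. Iglj2 lies inside the annotated span of Iglc2, on the same strand, so reads there cannot be told apart.

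The kappa constant gene dominated in every library, as the plot of the 7 genes by library shows. Igkc stood at 2127, 2819 and 2830 FPKM in KO replicates 1 to 3 and at 2484, 2635 and 2738 FPKM in wildtype replicates 1 to 3. The library labelled KO replicate 1 was the lowest and KO replicates 2 and 3 the highest of all, so the groups overlapped on both sides. The group means were 2476 ± 493 FPKM (SD, n = 2) in KO and 2619 ± 128 (SD, n = 3) in wildtype, and the edgeR log2 difference, KO minus wildtype, was -0.07 with a standard error of 0.217.

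**Figure D1:**
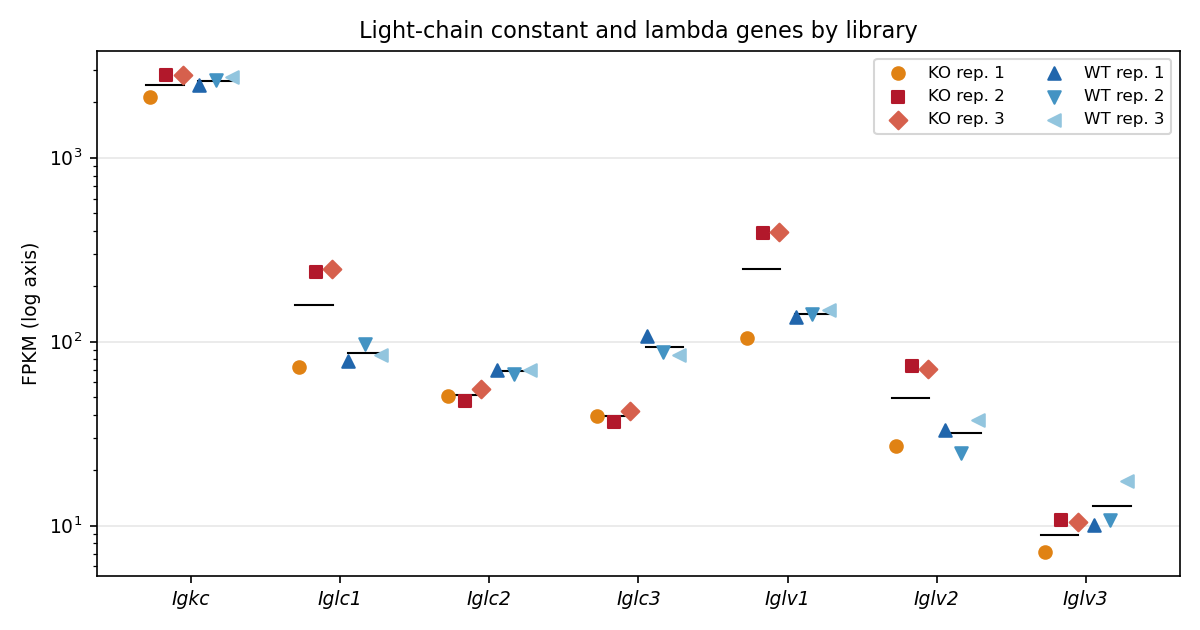
Level of each of the 7 genes (FPKM, log axis) in the 6 libraries, with KO replicates 1 to 3 as orange circles, dark red squares and light red diamonds and wildtype replicates 1 to 3 as blue triangles. Black bars are group means, with KO replicates 2 and 3 averaged first. Iglc2 and Iglc3 lie under every wildtype library in all 3 KO libraries, and Iglc1, Iglv1 and Iglv2 stand above wildtype in KO replicates 2 and 3 alone.

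Among the lambda constant genes, Iglc3 showed the widest separation by group. Its level was 39.6, 36.5 and 41.9 FPKM in KO replicates 1 to 3 and 107, 88.2 and 84.1 FPKM in wildtype replicates 1 to 3. Every KO library was lower than every wildtype library, and the library labelled KO replicate 1, whose label is in doubt, stood between the other two KO libraries. The means were 39.4 ± 0.259 FPKM (SD, n = 2) and 93.2 ± 12.3 (SD, n = 3), and the edgeR log2 difference was -1.22 with a standard error of 0.154. This KO SD is smaller than the difference between KO replicates 2 and 3, which were averaged first, so it understates the spread in KO. It was -1.28 without the library labelled KO replicate 1 and -1.15 without KO replicates 2 and 3.

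Iglc2, the near copy of Iglc3, differed in the same direction by less. It stood at 50.4, 47.7 and 55.4 FPKM in KO and at 69.8, 66.7 and 70.4 FPKM in wildtype replicates 1 to 3. The groups as labelled again did not overlap. The means were 51.0 ± 0.793 FPKM (SD, n = 2) and 68.9 ± 1.96 (SD, n = 3), with a log2 difference of -0.41 and a standard error of 0.122. Here too the KO SD is smaller than the difference between KO replicates 2 and 3. The ratio of Iglc2 to Iglc3, both per length, was 1.27, 1.31 and 1.32 in the KO libraries and 0.651, 0.756 and 0.836 in wildtype. Per length Iglc2 thus exceeded Iglc3 in all KO libraries and was below it in all wildtype libraries. The wildtype order rests on the scaling by length. By counts Iglc2 stood at 2817, 2466 and 2737 and Iglc3 at 3196, 2406 and 2417 in wildtype replicates 1 to 3.

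Iglc1 did not follow this order. It stood at 73.3 FPKM in the library labelled KO replicate 1, at 239.6 and 248 FPKM in KO replicates 2 and 3, and at 78.1, 96.7 and 84.9 FPKM in the wildtype replicates. KO replicates 2 and 3 stood 2.82 times above the wildtype mean, whereas the library labelled KO replicate 1 was 0.846 times that mean and below every wildtype library. The group means of 159 ± 121 FPKM (SD, n = 2) and 86.6 ± 9.38 (SD, n = 3) therefore differed by less than the spread within KO, and the log2 difference was 0.86 with a standard error of 0.406. That difference was 1.45 without the library labelled KO replicate 1 and -0.16 without KO replicates 2 and 3, so its direction was set by a pair of libraries that count as 1 sample.

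Iglv1, the variable gene that stands upstream of Iglc3 and Iglc1, followed Iglc1. Its level was 104.5 FPKM in the library labelled KO replicate 1, 389 and 393 FPKM in KO replicates 2 and 3, and 136, 141 and 149 FPKM in the wildtype replicates. The order of libraries was split as for Iglc1, with KO replicates 2 and 3 at 2.75 times the wildtype mean and the library labelled KO replicate 1 at 0.736 times. The means were 248 ± 203 FPKM (SD, n = 2) and 142 ± 6.83 (SD, n = 3), with a log2 difference of 0.79 and a standard error of 0.432. The ratio of Iglv1 to Iglc1 stayed between 1.43 and 1.76 in all 6 libraries, while Iglc1 itself ranged from 73.3 to 248 FPKM.

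Iglv2 was also high in KO replicates 2 and 3. It stood at 27.0, 73.7 and 70.7 FPKM in KO and at 33.0, 24.7 and 37.5 FPKM in wildtype replicates 1 to 3. The 2 higher KO libraries lay above all wildtype libraries and the library labelled KO replicate 1 lay within their range. The means were 49.6 ± 31.9 FPKM (SD, n = 2) and 31.7 ± 6.48 (SD, n = 3), and the log2 difference was 0.64 with a standard error of 0.365. The ratio of Iglv1 to Iglv2, which share long stretches of sequence, was 3.87, 5.28 and 5.57 in KO and 4.11, 5.70 and 3.99 in wildtype, and these ranges overlapped.

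Iglv3, the most divergent variable gene, was the lowest of the 7. It stood at 7.21, 10.8 and 10.4 FPKM in KO and at 10.1, 10.7 and 17.4 FPKM in wildtype replicates 1 to 3, from 161 to 423 counts per library. The groups overlapped, with means of 8.90 ± 2.40 FPKM (SD, n = 2) and 12.8 ± 4.06 (SD, n = 3) and a log2 difference of -0.51 with a standard error of 0.331. That difference was -0.21 without wildtype replicate 3, the highest library, and -0.31 without the library labelled KO replicate 1. It did not share the high values of Iglv1 and Iglv2 in KO replicates 2 and 3, where it was 0.831 times the wildtype mean.

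All 7 genes passed the filter on low values, a mean of 0.5 FPKM. Of them, 3 had a higher and 4 a lower fitted mean in KO, with a median log2 difference of -0.07 against -0.02 over the 15373 genes tested. In 2 of the 7, Iglc2 and Iglc3, every library labelled KO was lower than every wildtype library, which was true of 13.7% of all genes tested, and in 0 of the 7 was every KO library higher, against 11.3%. No gene of the table was called with the 5 samples at an adjusted p under 0.05 (edgeR quasi-likelihood test, Benjamini-Hochberg), with 2106 genes at an unadjusted p under 0.05 and a lowest adjusted p of 0.105. DESeq2 called 879 genes (5.72%) on the same samples.

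Of the joining segments, which mark the constant gene a variable gene was joined to, Iglj3 stood lower in all 3 KO libraries and Iglj1 higher in KO replicates 2 and 3, while Iglj2 did not follow Iglc2. Iglj1 stood at 107, 327 and 327 FPKM in KO and at 98.1, 122 and 110.2 FPKM in wildtype replicates 1 to 3. Iglj3 stood at 32.0, 47.2 and 44.7 FPKM in KO and at 90.7, 84.5 and 93.7 FPKM in wildtype. KO replicates 2 and 3 thus carried 2.96 times the wildtype mean of Iglj1 and 0.513 times that of Iglj3, and the library labelled KO replicate 1 carried 0.970 and 0.357 times. The ratio of Iglj1 to Iglj3 was 3.34, 6.92 and 7.31 in the KO libraries and 1.08, 1.45 and 1.18 in wildtype, and the groups did not overlap. Iglj2, from only 10 to 20 counts per library, stood at 4.16, 7.19 and 7.47 FPKM in KO and at 5.39, 4.83 and 5.88 FPKM in wildtype. Its KO replicates 2 and 3 lay above every wildtype library, where Iglc2 lay below them, and its groups overlapped. The excess of KO replicates 2 and 3 over the wildtype mean was 249 FPKM for Iglv1, 157 for Iglc1 and 40.4 for Iglv2. For Iglj1 it was 216 FPKM. Iglj1 spans 38 bases, fewer than the 150 of a read, so its FPKM cannot be set beside those of the longer genes. In KO replicates 1 to 3 its counts were 238, 874 and 874, against 1946, 7660 and 7937 for Iglc1.

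**Figure D2:**
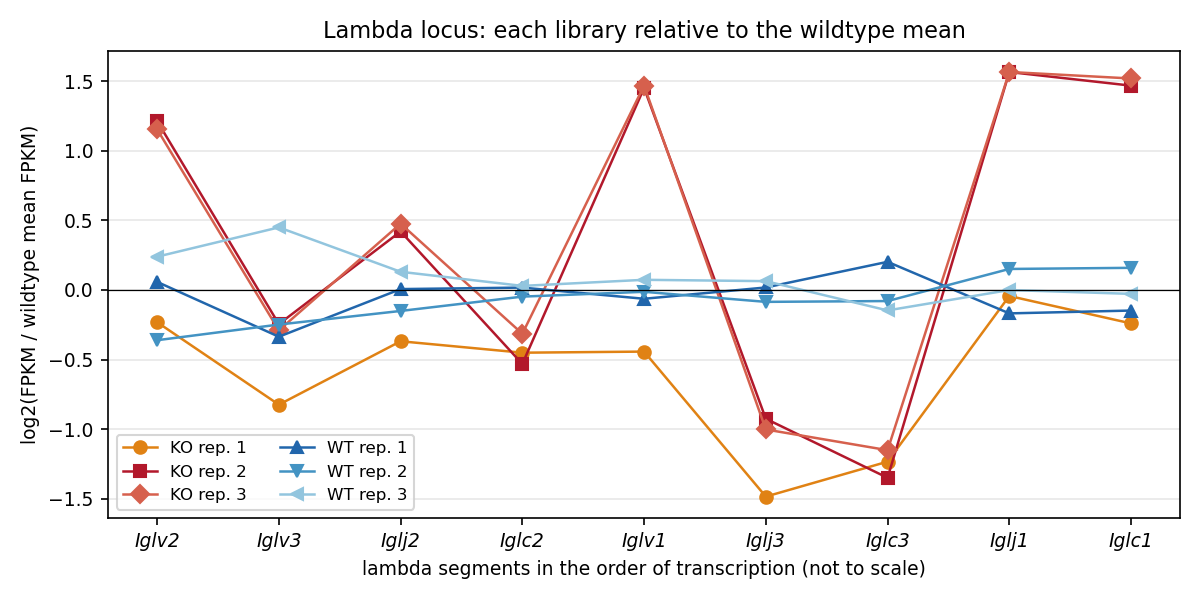
Level of 9 lambda segments in each library, as log2 of FPKM over the wildtype mean, with the segments in the order of transcription and not to scale; colours and markers are as in the plot of the 7 genes by library. KO replicates 2 and 3 peak at Iglv2, Iglv1, Iglj1 and Iglc1 and dip at Iglj3 and Iglc3, with Iglj2 above and Iglc2 below wildtype, and the library labelled KO replicate 1 shares the dip without the peaks.

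Within the lambda constant genes the make-up differed by library more than their sum did by group. The summed level of Iglc1, Iglc2 and Iglc3 was 163, 324 and 346 FPKM in KO and 255, 252 and 239 FPKM in wildtype replicates 1 to 3, and the wildtype libraries fell between the KO libraries. Iglc1 made up 44.9%, 74.0% and 71.8% of this sum in KO and 30.6%, 38.4% and 35.5% in wildtype. Iglc3 made up 24.3%, 11.3% and 12.1% in KO and 42.0%, 35.1% and 35.1% in wildtype. The share of Iglc1 was thus higher, and that of Iglc3 lower, in every KO library than in every wildtype library. In the library labelled KO replicate 1 this came with an Iglc1 level under that of all wildtype libraries.

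**Figure D3:**
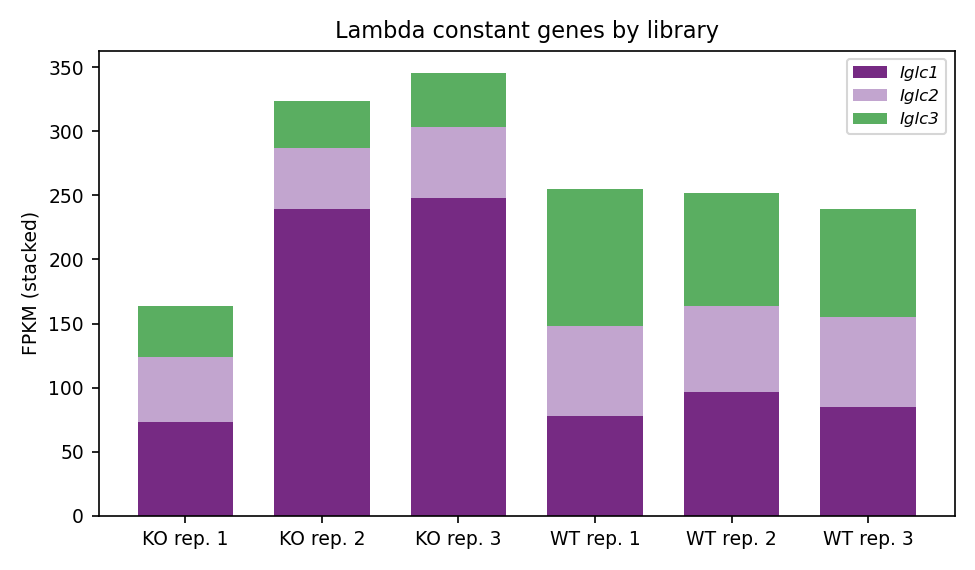
Stacked bars of the FPKM of Iglc1 (dark purple), Iglc2 (light purple) and Iglc3 (green) in each library. The sum runs from 163 in the library labelled KO replicate 1 to 346 in KO replicate 3, with wildtype libraries between 239 and 255, and the green part is smaller in all 3 KO libraries.

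The order of levels per length changed between the libraries as well. In wildtype it ran Iglv1, Iglc3, Iglc1, Iglc2, Iglv2 and Iglv3 by mean level, all far under Igkc. Iglc3 at 84.1 to 107 FPKM and Iglc1 at 78.1 to 96.7 FPKM overlapped there, and the other neighbours in this order did not. In the library labelled KO replicate 1 the order was Iglv1, Iglc1, Iglc2, Iglc3, Iglv2 and Iglv3. In KO replicates 2 and 3, Iglv2 at 70.7 to 73.7 FPKM stood above Iglc2 at 47.7 to 55.4 and Iglc3 at 36.5 to 41.9.

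The kappa to lambda ratio, taken as counts of Igkc over the summed counts of the 3 lambda constant genes, was 13.8, 9.70 and 9.09 in KO replicates 1 to 3 and 10.4, 11.3 and 12.2 in wildtype replicates 1 to 3. The library labelled KO replicate 1 had the highest ratio of all and KO replicates 2 and 3 the lowest, so the KO libraries lay on both sides of wildtype. The means were 11.6 ± 3.11 (SD, n = 2) and 11.3 ± 0.871 (SD, n = 3), a log2 difference of 0.01, which was smaller than the spread between replicates. Per length, the ratio was 13.0, 8.70 and 8.19 in KO and 9.74, 10.5 and 11.4 in wildtype. Lambda thus made up 7.13%, 10.3% and 10.9% of the summed constant-gene FPKM in KO, and 9.31%, 8.71% and 8.04% in wildtype.

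The direction of the ratio depended on the lambda gene it was taken over. Over Iglc1 alone it was 34.0, 13.8 and 13.4 in KO and 37.2, 31.9 and 37.8 in wildtype, and KO replicates 2 and 3 were the lowest. Over Iglc2 alone it was 36.6, 51.3 and 44.4 in KO and 30.9, 34.3 and 33.8 in wildtype. Over Iglc3 alone it was 63.2, 90.8 and 79.4 in KO and 27.3, 35.2 and 38.3 in wildtype. For Iglc2 and for Iglc3 every KO library was above every wildtype library, and over their sum, which does not depend on how reads were split between these near copies, the ratio was 23.2, 32.8 and 28.5 against 14.5, 17.4 and 18.0.

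Variable segments gave a ratio of their own. The summed counts of all 118 Igkv genes over those of Iglv1, Iglv2 and Iglv3 were 13.9, 5.60 and 5.69 in KO and 11.6, 13.4 and 12.7 in wildtype. KO replicates 2 and 3 stood well under every wildtype library and the library labelled KO replicate 1 above them. The summed Igkv level per length was close to that of Igkc in every library, at 0.856 to 1.005 times, whereas the summed lambda variable level was 0.849, 1.46 and 1.37 times that of the lambda constant genes in KO and 0.702, 0.701 and 0.853 times in wildtype.

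**Figure D4:**
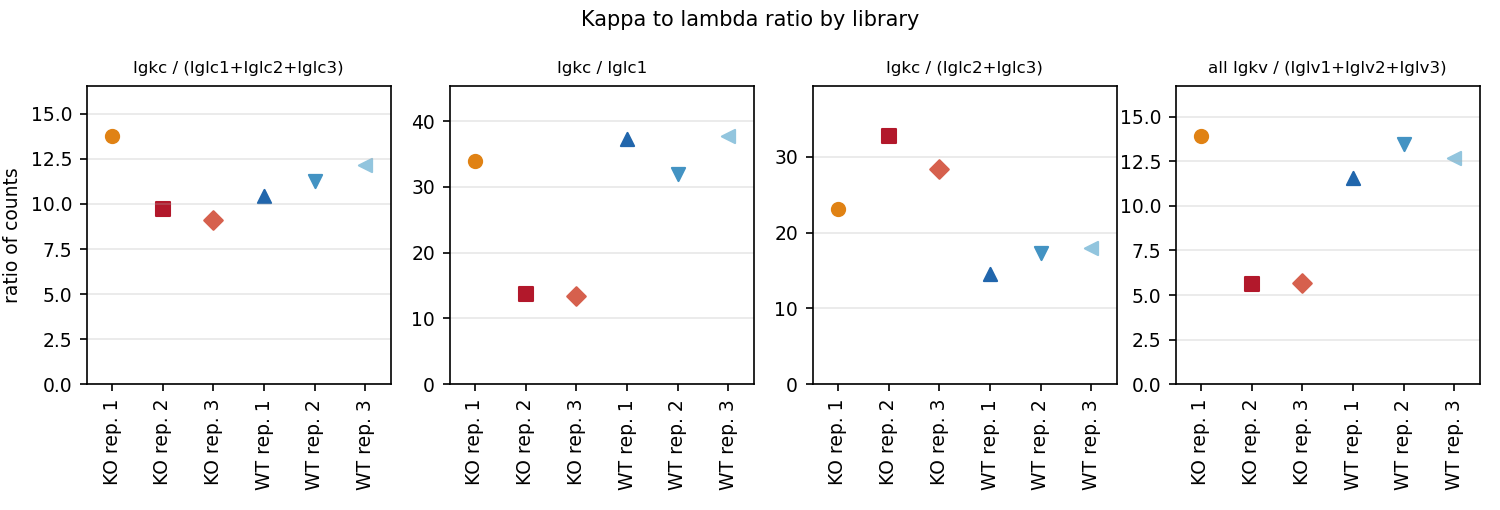
Kappa to lambda ratio of counts in each library, on axes that start at 0, over the 3 lambda constant genes, over Iglc1, over Iglc2 plus Iglc3, and for variable genes; markers are as in the plot of the 7 genes by library. KO libraries straddle wildtype in the leftmost panel, KO replicates 2 and 3 are lowest over Iglc1 at 13.8 and 13.4, and all KO libraries exceed wildtype over Iglc2 plus Iglc3.

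The ratio of Igkc to genes of antibody-secreting cells and of B cells depended on the gene it was taken over. Jchain, which links antibodies into polymers, stood at 128, 165 and 174 FPKM in KO and at 162, 228 and 178 FPKM in wildtype, and its log2 difference was -0.34 with a standard error of 0.221 (edgeR adjusted p = 0.589). The ratio of Igkc to Jchain was 16.6, 17.1 and 16.2 in KO and 15.4, 11.6 and 15.4 in wildtype. Every KO library was above every wildtype library, and wildtype replicate 2, where Jchain was highest, had the lowest ratio. Cd79a, a signalling subunit of the B-cell receptor, stood at 45.6, 26.1 and 26.3 FPKM in KO and at 98.3, 94.2 and 87.6 FPKM in wildtype. The ratio of Igkc to Cd79a was therefore 46.6, 108 and 108 in KO and 25.3, 28.0 and 31.3 in wildtype, highest in KO replicates 2 and 3. Over Cd79b and Cd72 every KO library was also above every wildtype library, at 46.7 to 102 against 29.0 to 32.9 and at 238 to 309 against 103 to 145. The plasma cell genes gave both directions. Over Irf4, Sdc1 and Mzb1 the ratio was higher in every KO library, at 683 to 758 against 387 to 530.3, 433 to 599 against 262 to 397, and 157 to 264 against 122 to 148. Over Xbp1 it was lower, at 31.5 to 39.2 against 43.1 to 48.8. Apart from Jchain and Cd79a, these genes were named for a small unadjusted p in the same contrast. Igkc itself differed little by group mean, so these ratios mainly restate the levels of the genes they were taken over. No ratio was taken over the other genes of these lists. By fitted mean 3 of 12 B-cell genes and 4 of 10 plasma cell genes were higher in KO.

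Single kappa variable genes stood apart in each library, in wildtype as in KO. The 3 Igkv genes with the highest mean level were Igkv5-39, Igkv4-55 and Igkv19-93. Igkv5-39 ranged from 39.6 FPKM in the library labelled KO replicate 1 to 434 in wildtype replicate 3, Igkv4-55 from 68.4 in wildtype replicate 3 to 279 in wildtype replicate 1, and Igkv19-93 from 68.7 in wildtype replicate 3 to 279 in the library labelled KO replicate 1. The highest library was a different one for each of them. Igkv genes of at least 10 FPKM that exceeded every other sample by more than 4 times numbered 1 in the library labelled KO replicate 1 and 4 in the mean of the other two KO libraries. Wildtype replicates 1 to 3 held 1, 4 and 2 such genes. Examples chosen after their values were seen are Igkv4-63, at 152 and 177 FPKM in KO replicates 2 and 3 and 0.868 to 15.9 elsewhere, and Igkv12-44, at 287 FPKM in wildtype replicate 2 and 15.8 to 29.7 elsewhere. Iglv1 and Iglc1 in KO replicates 2 and 3 did not reach that 4-fold margin.

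Genes that act on the light-chain loci were read from the same fit. Because 0 of 15373 genes were called with 5 samples (0.0%), the calls given are those with all 6 libraries treated as separate samples, where 3.71% of genes were called, 2.46% higher and 1.25% lower in KO (edgeR, adjusted p under 0.05). That fit counts KO replicates 2 and 3 apart although they are closer to each other than any other pair of libraries. Each adjusted p that follows is from the fit with 5 samples and then from the fit with 6 libraries.

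The surrogate light chain stands in for the light chain before its genes are rearranged, and the genes listed for it were low in KO. All 4 genes of this list were called lower with 6 libraries, with a median log2 difference of -1.64 with 5 samples. Igll1, the constant-like part of that chain, stood at 4.21, 2.78 and 2.56 FPKM in KO and at 11.1, 11.8 and 8.76 FPKM in wildtype, with adjusted p = 0.166 and 0.0358. Vpreb1 and Vpreb2 differed by -1.64 and -2.63. Vpreb3, which was listed beside the parts of that chain, stood at 9.24 to 11.8 FPKM in KO and 32.6 to 34.8 in wildtype, with a log2 difference of -1.63. Unlike Iglc1 and Iglv1, these genes were on the same side of wildtype in all 3 KO libraries.

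Of 10 genes of V(D)J recombination, the cutting and joining of segments, 2 were called lower and 0 higher. They were Dntt, which adds bases at the joins, with a log2 difference of -1.35 (edgeR adjusted p = 0.111 and 0.02), and Rag1, which cuts the segments, with -1.50 (0.123 and 0.0217). Rag2, its partner, differed by -1.49 and Xrcc6, which joins broken ends, by -0.46, and neither was called. By fitted mean 7 of the 10 were lower and 3 higher. The higher ones, named after their values were seen, were Xrcc4 at 0.47, Nhej1 at 0.35 and Dclre1c at 0.22. Of 13 regulators of the light-chain loci, 6 were called lower and 1 higher, and by fitted mean 10 were lower and 3 higher. Pax5 and Ebf1, which set B-cell identity, differed by -1.55 and -1.44, Pou2af1 and Spib, which act in B cells, by -1.19 and -1.23, and the one called higher was Spi1, also a factor of myeloid cells, at 0.73.

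Of 12 genes of the B-cell receptor and B-cell surface, 6 were called lower and 0 higher. Cd79a differed by -1.35 (edgeR adjusted p = 0.166 and 0.0358), Cd79b by -1.17 and Cd72 by -1.20. By fitted mean 9 of the 12 were lower and 3 higher, the latter being Lyn at 0.35, Btk at 0.10 and Syk at 0.02, signalling kinases that myeloid cells also express and that were named after their values were seen. Of 10 plasma cell genes, 1 was called lower, Sdc1, a surface marker of these cells, at -0.65. Irf4 at -0.64, Mzb1 at -0.62 and Xbp1 at 0.31 were not called. Summed over the lists, the B-cell receptor and surface genes stood at 226 to 238 FPKM in KO and 367 to 416 in wildtype, which did not overlap, and the plasma cell genes at 245 to 309 and 279 to 352, which did.

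Among the partner chains, 7 of 8 heavy-chain constant genes were tested, of which 2 were called higher and 1 lower. Ighg1 stood at 33.1, 94.3 and 96.7 FPKM in KO and at 12.7, 4.25 and 14.8 FPKM in wildtype, a log2 difference of 2.61 (edgeR adjusted p = 0.166 and 0.0397). Ighg2c differed by 1.40 and was called higher, Ighg2b by 1.77 and was not called, and Ighd, which marks naive B cells, by -1.57 and was called lower. Igha, the constant gene of mucosal antibody, was not called, but its 141 FPKM in the library labelled KO replicate 1 and 375 and 382 FPKM in KO replicates 2 and 3 stood on either side of 265 to 266 FPKM in wildtype, as for Iglc1. Of 9 joining segments tested out of 10, 1 was called, Iglj3, lower at -1.18 (0.175 and 0.0437), and Iglj1 at 0.96 was not (0.374 and 0.126). The other named joining segments, Igkj2 at -0.52 and Igkj3 at -0.57, were not called either.

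Of 93 Igkv genes tested out of 118, 5 were called higher and 1 lower, with a median log2 difference of -0.03. Those with the smallest unadjusted p were Igkv9-124 at 1.99, Igkv8-21 at 2.49, Igkv12-89 at 1.61 and Igkv6-15 at 1.15, all 4 called higher. By fitted mean over both KO samples 45 were higher and 48 lower. That balance averages over unlike samples, since the median was 0.11 without the library labelled KO replicate 1 and -0.82 without KO replicates 2 and 3.

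**Figure D5:**
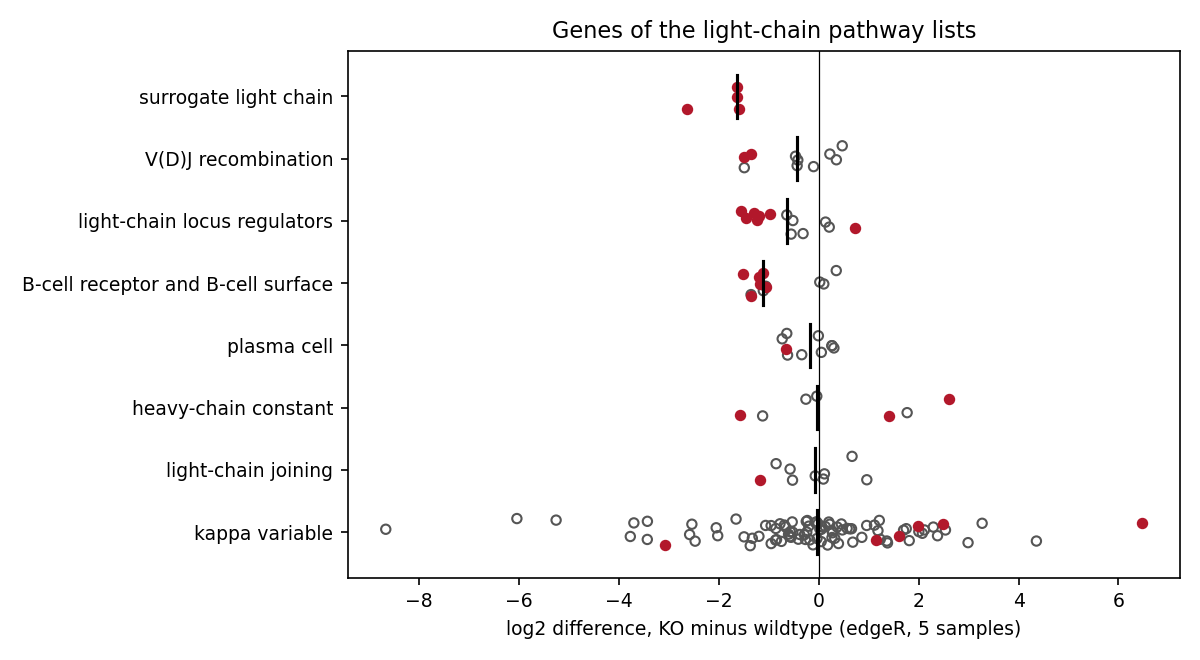
Log2 difference between KO and wildtype (edgeR, 5 samples) for each tested gene of 8 lists. Filled red points are genes called with all 6 libraries at an adjusted p under 0.05, open points those not called, and black bars the median of each list; height within a row has no meaning. All 4 genes of the surrogate light-chain list lie left of 0 and the kappa variable genes spread to both sides.

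The genes whose pattern over the 5 samples was most like that of Igkc, by the root mean square distance of centred log2 CPM (counts scaled to library size) among 13308 candidates, were Pak4 (0.0218), Slc27a3 (0.0262), Rai1 (0.0292), Arl6ip6 (0.0298) and Gatb (0.0328). For the summed lambda constant genes they were Prorp (0.0344), Gm43858 (0.0418), Tmed5 (0.0528), Idi1 (0.0662) and Dnajc6 (0.0703). None of the named immunoglobulin, B-cell or plasma cell genes was among them. The points share libraries and depth, and with 5 samples a close match is a description only.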

How the data were processed

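Levels came from a table with 1 row per gene and, for each of the 6 libraries, an estimated count and an FPKM value, both deposited by the authors. The submitters' notes list cutadapt 1.9, HISAT2 2.0.4, UMI-tools, StringTie 1.3.4d, DESeq2 and edgeR without saying what each was used for. Libraries were poly(A)-selected and strand-marked with adapters that carry molecular identifiers; the strand setting of the counting and the use of the identifiers are not given in the sources used here. Low deposited counts pile up at 4 (6596 values, against 4170 at 3 and 2332 at 5), so a count is not a single read pair. Sample groups came from the labels. The knocked-out gene and its level are not reported here.

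Counts were rounded and scaled by TMM, and KO and wildtype were compared by the quasi-likelihood test of edgeR 4.0.16 (R 4.3.3) on 15373 genes, those whose mean FPKM reached 0.5. The rounded mean of KO replicates 2 and 3 was used as 1 sample, which gave 5 samples. P-values were adjusted by Benjamini-Hochberg and called under 0.05. Alternatives were all 6 libraries, a replicate block, DESeq2 1.42.0, its size factors in edgeR, no filter, limma 3.58.1 on log2(FPKM + 1) and log2(FPKM + 0.1), each library left out, and other lambda genes in the ratio. The fit was also run on simulated data whose spread between samples was capped at a low value. That run does not show how the fit performs at the spread seen here. The members and all gene lists were chosen with earlier results of these data known. Named were the 7 members and up to 4 genes per list with the smallest unadjusted p. Jchain, Igll1 and Cd79a, the 5 genes nearest in pattern, and the 3 highest Igkv genes were named as well. Spi1, Igha, Lyn, Btk, Syk, Xrcc4, Nhej1 and Dclre1c were named after their values were seen, as were the examples among the Igkv genes. Sequences are from GENCODE M21 (GRCm38), in which 30117 of 34607 matched gene IDs (87.0% of those matched) had the deposited position.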

Additional observations from a re-analysis of the deposited data

How the results depend on the processing

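Of 239 values recomputed under an alternative, 186 counted as the same and 53 as moved. A log2 difference counted as the same if it changed by less than the spread between replicates (SD within groups). Over the 7 genes that spread ran from 0.0379 for Iglc2 to 0.7355 for Iglv1, so the labels do not rank the genes by stability. For Iglc1, with a spread of 0.683, a change from 0.86 to 1.45 without the library labelled KO replicate 1 counted as the same. A number of genes called, 0 as reported, counted as the same only if it stayed at 0. The log2 differences of Iglc3 and Iglv3 stayed within that spread under every alternative, although that of Iglv3, -0.51 as reported, ran from -0.67 to -0.21 with 1 library left out, the latter without wildtype replicate 3. Those of Igkc, Iglc1, Iglv1, Iglv2 and Iglc2 moved to -0.22, -0.16, -0.36, -0.15 and -0.37 without KO replicates 2 and 3, an alternative chosen after seeing the data; that of Iglc2 ran from -0.47 to -0.36 with 1 library left out at a time. The log2 difference of the kappa to lambda ratio, 0.01 as reported, was -0.73 over Iglc1, 0.34 over Iglc2, 1.14 over Iglc3, 0.68 over Iglc2 and Iglc3 (chosen after seeing the data), -0.50 for variable segments, 0.29 without KO replicates 2 and 3, and -0.26 to 0.0703 with 1 library left out.

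Genes called numbered 0 as reported, 570 with 6 libraries, 879 by DESeq2, 21 with no filter, 9 without KO replicates 2 and 3, and 0 to 352 with 1 library left out, where the 352 were without the library labelled KO replicate 1. That fit has a KO arm of 1 sample, the mean of KO replicates 2 and 3, which is assumed to vary like wildtype, and the fit without KO replicates 2 and 3 likewise has 1. In the same order of 6 libraries, DESeq2 and no filter, the lists had 4, 4 and 1 calls (surrogate light chain), 2, 3 and 2 (V(D)J recombination), 7, 8 and 4 (locus regulators), 6, 9 and 2 (B-cell receptor), 1, 2 and 0 (plasma cell), 3, 4 and 1 (heavy-chain constant), 1, 1 and 0 (joining), and 6, 12 and 2 (kappa variable). Without KO replicates 2 and 3 the heavy-chain and kappa variable lists had 1 call each. Without the library labelled KO replicate 1, which gave the highest counts of all libraries left out, the lists had 3, 2, 4, 7, 0, 3, 1 and 6 calls in that order, and 0 was the lowest for each. The cause was not tested.

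With the replicate number as a block, 0 genes were called and the ratio's log2 difference was -0.08. The numbers do not pair the samples: deviations of same-numbered libraries correlated at -0.145, -0.108 and -0.0581. The lowest count of the 7 genes in any library was 161.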
